A study of Caenorhabditis elegans with 10 samples.

Results

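The 6 vitellogenin genes of Caenorhabditis elegans, vit-1 to vit-6, were followed in 10 RNA-seq libraries of dauers, the arrested larval stage that worms enter under adverse conditions. The members were the rows of the count tables that carry these gene names, 6 of 20222 genes. Of the 2 genotypes, daf-2 carries the e1370 allele of the insulin-like receptor gene daf-2. The other, chd-7;daf-2, carries the same e1370 allele together with chd-7(gk290), an allele of the gene for the chromatin remodeller CHD-7, so e1370 is present in both and no wild-type worms are included. Each genotype has 5 libraries, and all worms spent 10 days at 25 °C from synchronized eggs. Separate cultures are not stated in the labels, and p-values thus measure only how these libraries vary, which may be technical. The second genotype is called the double mutant.

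Vitellogenins are the precursors of yolk, large lipid-carrying proteins related to vertebrate apolipoprotein B. In C. elegans they are made by the intestine of the adult hermaphrodite, secreted into the body cavity and taken up by oocytes through the receptor RME-2. The genes vit-1 to vit-5 encode similar large yolk polypeptides, and the more distant vit-6 encodes a precursor that is cut into a pair of smaller ones. Yolk production is normally a trait of adults, and a dauer is not one.

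Gene reads per library ranged from 7331885 to 14997608, and levels are given in CPM, read counts brought to a common library size, with sizes scaled by the trimmed mean of M-values (TMM). Where no read was found, up to 3 counts remain possible, which is 0.196 to 0.393 CPM depending on the library. The chd-7 gene itself was read at 207 to 263 CPM in daf-2 and 234 to 283 CPM in the double mutant. A count over a whole gene does not resolve the part altered by an allele, so this does not check the labels. No pair of libraries agreed within sampling noise, but daf-2 replicates 4 and 5, double-mutant replicates 1 and 2, and double-mutant replicates 3 and 4 were closest. Their chi-square per degree of freedom was 4.04, 5.91 and 6.97, against 17.2 to 72.8 in the other pairs within a genotype. Of dauer markers, the small heat shock protein gene hsp-12.6 was at 440 to 705 CPM in daf-2 and 220 to 529 CPM in the double mutant. Of the dauer cuticle genes, cut-6 was fairly even within each genotype, at 8.71 to 11.5 CPM in daf-2. In the double mutant it was higher, at 15.6 to 23.3 CPM. Others were less even. The collagen gene col-2 ran from 9.39 to 105.8 CPM in daf-2 and from 2.51 to 23.3 CPM in the double mutant, and the cuticlin gene cut-1 from 1.79 to 26.5 CPM and from 0.327 to 5.17 CPM. Both were lowest in daf-2 replicate 1 and in double-mutant replicate 4 within their genotype. The adult cuticle collagen gene col-19 had 0 reads in all 10 libraries.

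In the Ensembl 115 annotation of WBcel235, matched by gene name, 5 of the 6 members lie on chromosome X and vit-6 lies on chromosome IV. This annotation may differ from that used for counting. The gene vit-2 (WBGene00006926) spans X 5101042 to 5106169 on the plus strand, with 5 exons and 4934 exonic bases. The gene vit-5 (WBGene00006929) spans X 3403471 to 3408603 on the plus strand, with 6 exons and 4870 exonic bases. On the minus strand, vit-4 (WBGene00006928) spans X 3558769 to 3563965 and vit-3 (WBGene00006927) spans X 3567355 to 3572549, with 3389 bases between them. Further along, vit-1 (WBGene00006925) spans X 7727889 to 7733168 on the plus strand. On chromosome IV, vit-6 (WBGene00006930) spans 8261157 to 8266459 on the plus strand, with 5 exons and 5064 exonic bases. All 6 transcripts are thus similar in length, from 4870 to 5088 exonic bases.

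Some of the members are near-identical in sequence, vit-3, vit-4 and vit-5 above all. Reads that align to several places were left out of the counts and amounted to 5.53% to 11.2% of the reads that were assigned to a gene or tallied. The levels of these 3 genes, and how reads divide between them, are therefore uncertain. The exons of vit-3 and vit-4 also share 171 and 150 bases with non-coding genes on the other strand, and those of vit-2 share 11 bases with a neighbour. The strand setting of the counting is not given in the sources used here.

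Vitellogenin transcripts were rare in these dauers. The 6 members together held 2430 reads over all 10 libraries, 2159 in daf-2 and 271 in the double mutant. Of these reads, 98.93% belonged to vit-2, vit-5 and vit-6. Only 2 libraries, daf-2 replicates 2 and 3, supplied 82.3% of them. In the order of replicates 1 to 5, the summed vitellogenin level was 6.57, 107.4, 82.8, 3.80 and 3.67 CPM in daf-2. It was 2.02, 2.45, 2.14, 17.4 and 2.49 CPM in the double mutant. Thus replicates 2 and 3 of daf-2 stood far above the other 3 libraries of their genotype, and double-mutant replicate 4 stood above the rest of its own and also above the 3 low daf-2 libraries. In bulk RNA, fewer cells that make a transcript and less RNA in each of them cannot be told apart.

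The gene vit-2 had the highest mean level of the members. It was read at 3.41, 55.7, 52.9, 2.21 and 1.57 CPM in daf-2 replicates 1 to 5. Double-mutant replicates 1 to 5 held it at 0.790, 0.9997, 0.836, 8.71 and 0.589 CPM. Replicate 4 thus lay above 3 of the daf-2 libraries and the other mutant libraries lay below all of them, so the genotypes overlapped. The means were 23.2 ± 28.4 CPM (SD, n = 5) in daf-2 and 2.39 ± 3.54 CPM in the double mutant, and the medians were 3.41 and 0.836 CPM. In edgeR's quasi-likelihood test vit-2 fell by 3.36 ± 1.197 (SE) on the log2 scale in the double mutant, with an adjusted p of 0.0486.

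The gene vit-6 was read at 1.54, 24.3, 19.04, 0.829 and 1.83 CPM in daf-2 replicates 1 to 5. The double-mutant libraries, in the same order, were at 0.790, 0.9997, 0.650, 1.96 and 1.51 CPM. Apart from daf-2 replicates 2 and 3, the libraries of the genotypes were interleaved: 0.829 to 1.83 CPM in the 3 other daf-2 libraries fell inside the mutant range of 0.650 to 1.96 CPM. The means were 9.52 ± 11.3 CPM (SD, n = 5) and 1.18 ± 0.543 CPM, and the medians 1.83 and 0.9997 CPM. By the same test vit-6 fell by 3.001 ± 0.94 (SE) on the log2 scale, with an adjusted p of 0.0297.

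The gene vit-5 was read at 1.28, 27.1, 10.4, 0.691 and 0.131 CPM in daf-2 replicates 1 to 5. In double-mutant replicates 1 to 5 it was at 0.176, 0.182, 0.465, 6.64 and 0.196 CPM. The same 3 libraries were highest as for vit-2, and the genotypes overlapped. The lowest of these values rest on very few reads, 1 in daf-2 replicate 5 and 2 in each of double-mutant replicates 1 and 2. The means were 7.93 ± 11.5 CPM (SD, n = 5) and 1.53 ± 2.86 CPM.

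The other 3 members were at or near the detection limit. The gene vit-1 had 10 reads in daf-2 and 6 in the double mutant, and vit-3 had 3 and 6. In vit-1 the reads were 3, 2, 4, 1 and 0 in daf-2 replicates 1 to 5 and 2, 2, 0, 0 and 2 in the mutant. Neither gene was high in daf-2 replicates 2 and 3 in the way vit-2, vit-5 and vit-6 were. A single read of vit-4 was found, in daf-2 replicate 1. At this depth no difference between genotypes was detectable for these 3 genes.

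**Figure D1:**
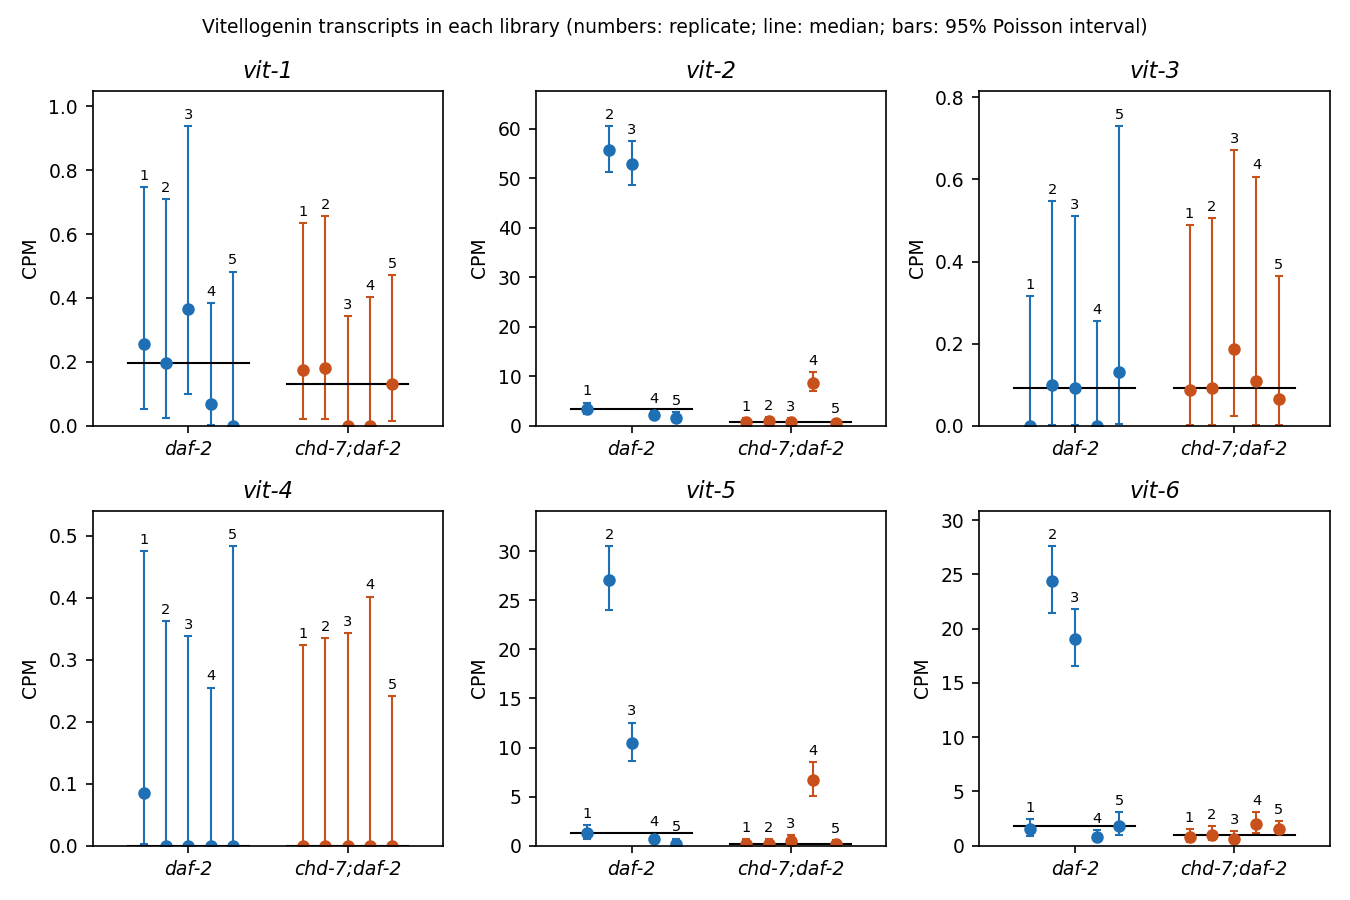
CPM of each vitellogenin gene (vertical axes, each with its own linear scale) in the 5 daf-2 and 5 chd-7;daf-2 libraries, with replicate numbers, exact 95% Poisson intervals that cover counting error only, and a line at the median. For vit-2, vit-5 and vit-6, daf-2 replicates 2 and 3 stand above the other daf-2 libraries, and for vit-2 and vit-5 double-mutant replicate 4 stands above the other mutant libraries. The values of vit-1, vit-3 and vit-4 stay below 1 CPM.

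Per kilobase of exon, mean levels of vit-2, vit-6 and vit-5 were 4.69, 1.88 and 1.63 CPM per kilobase in daf-2. In the double mutant they were 0.484, 0.233 and 0.315 CPM per kilobase. The order of vit-5 and vit-6 turned between the genotypes, and their difference lay within the spread over libraries. On this scale vit-2 was above vit-6 in every library other than daf-2 replicate 5 and double-mutant replicate 5. In double-mutant replicates 1 and 2 their reads were equal, at 9 each and 11 each, so only exon length set that order. In double-mutant replicate 3 it rested on 9 against 7 reads. Among 18520 genes with an annotated length, vit-2 ranked 6235th in daf-2 replicate 2 and 14316th in double-mutant replicate 5. Even where it was highest, it was therefore no leading transcript of the library.

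Only vit-2 and vit-6 passed the filter on low counts, which asked for about 0.897 CPM in 5 libraries. All 5 daf-2 libraries and 2 of the mutant libraries exceeded that level for vit-2, and 4 and 3 did so for vit-6. For vit-5, 3 daf-2 libraries and 1 mutant library exceeded it. Both tested members were called lower in the double mutant, where 18.3% of all 12499 tested genes were called lower, 17.9% were called higher and 36.2% were called in either direction. Since the filter keeps a low gene only if enough libraries are high, the 2 calls are no count over all 6 members. Neither gene separated the genotypes, whereas 22.7% of tested genes had no overlap between the genotypes.

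Without the filter all 6 members entered the fit, none was called, and 24% of 18710 genes were called in either direction. The adjusted p of edgeR was then 0.112 for vit-2 and 0.0664 for vit-6. At an unadjusted p under 0.05 these 2 genes would pass. The vit-5 estimate was -2.46 ± 1.501 (SE) on the log2 scale, at an adjusted p of 0.278. For vit-1, vit-3 and vit-4, at or near the detection limit in every library, the adjusted p was 0.516, 0.508 and 0.403, and no fold is given. In the 8 alternative fits that included vit-5, its adjusted p ranged from 0.135 to 0.291.

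An exact permutation test, which uses no model of the spread, was run on each member's mean log2(CPM + 0.5), two-sided, over all assignments of libraries to genotypes. The difference of the double mutant from daf-2 was -2.26 for vit-2 (exact p = 0.119) and -1.62 for vit-6 (exact p = 0.135). It was -1.503 for vit-5 (exact p = 0.206). For vit-1, vit-3 and vit-4 the exact p was 0.325, 0.246 and 1. No member passed, with p not adjusted over the 6 tests, where the smallest p the design allows is 0.00794. The calls for vit-2 and vit-6 thus depend on the test used.

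They also depend on single libraries. Without either daf-2 replicate 2 or 3, or any 1 of double-mutant replicates 1, 2, 3 and 5, both calls were lost in edgeR. Over the 10 fits without 1 library, the log2 fold change of vit-2 ran from -4.85 to -2.73 with adjusted p of 0.0134 to 0.1103. That of vit-6 ran from -3.31 to -2.30 with adjusted p of 0.0142 to 0.0729. The direction was the same in all of them.

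Leaving out daf-2 replicates 2 and 3 together removed nearly all of the difference. What remained on the log2 scale was -0.09 ± 0.89 (SE) for vit-2 and -0.22 ± 0.43 for vit-6. Leaving out double-mutant replicate 4 as well, an alternative chosen after seeing the data, left -1.61 ± 0.35 for vit-2 and -0.44 ± 0.41 for vit-6. The libraries left out were chosen for their high vitellogenin reads, so these values are a description and no test is drawn from them. In the libraries that were kept, vit-2 was at 1.57 to 3.41 CPM in daf-2 and 0.589 to 0.9997 CPM in the double mutant.

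**Figure D2:**
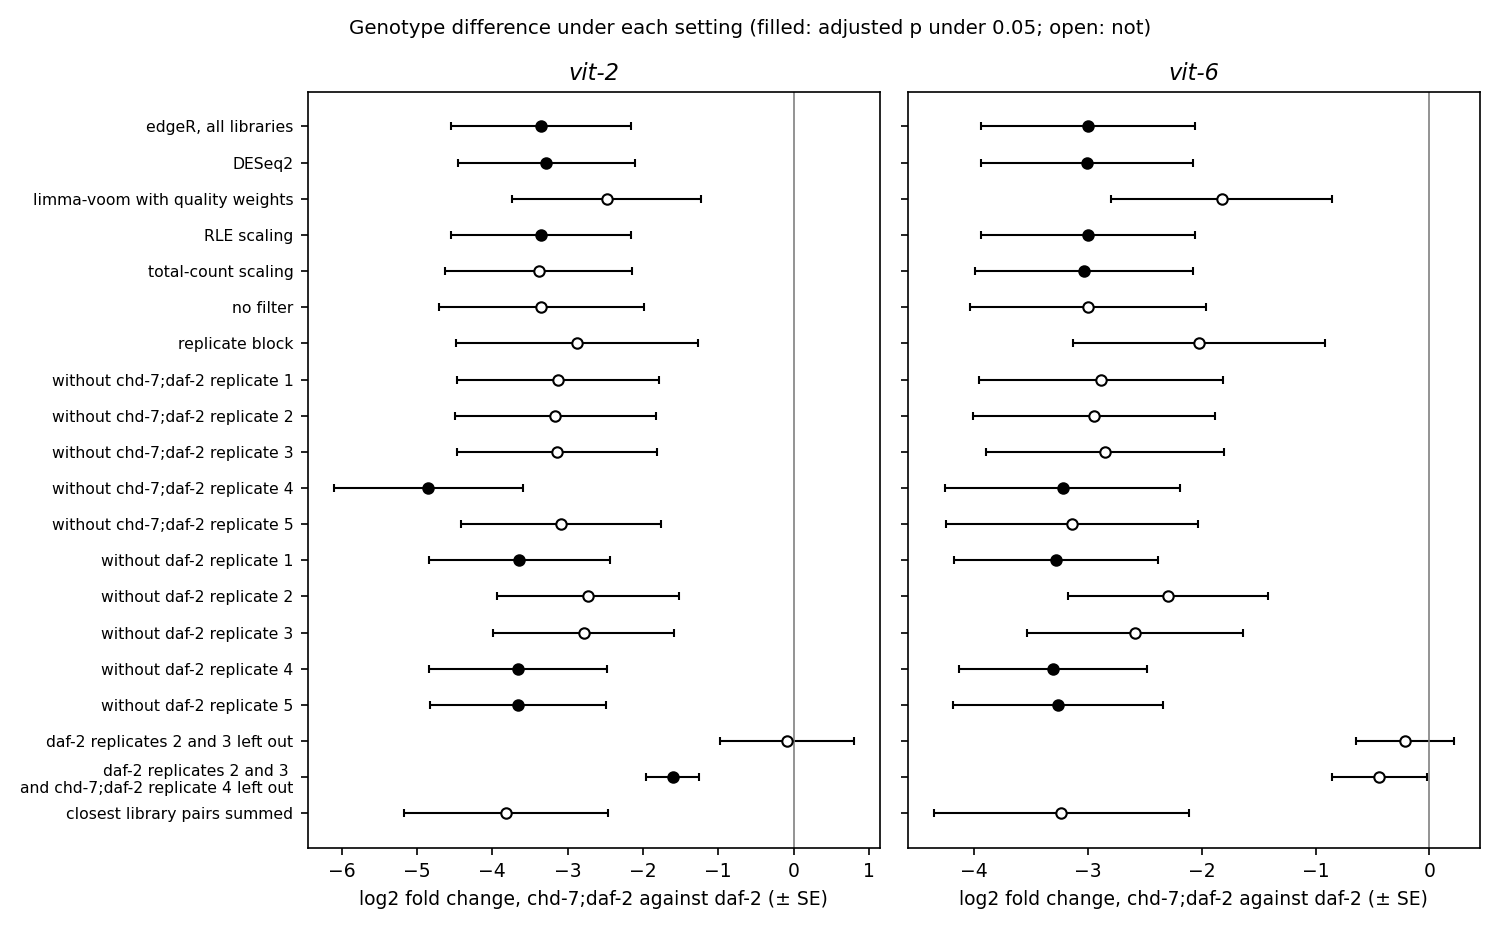
The log2 fold change of vit-2 (left) and vit-6 (right) in the double mutant against daf-2, with its SE, under each test, scaling, filter and choice of libraries. Filled points have an adjusted p under 0.05. The fits without daf-2 replicates 2 and 3 leave out libraries chosen for their vitellogenin reads, so their filling is no test. All points lie below 0, and are nearest to 0 without daf-2 replicates 2 and 3 (-0.09 and -0.22).

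The spread of the vitellogenin genes within daf-2 was among the widest of the table. The standard deviation of log2 CPM over the 5 daf-2 libraries was 2.47 for vit-2 and 2.14 for vit-6, where the median of all tested genes was 0.286. Of 12499 tested genes, 2 varied more than vit-2 and 4 varied more than vit-6. Within the double mutant the standard deviation was 1.45 for vit-2, with 107 genes wider, and 0.565 for vit-6, with 1254 genes wider. The highest daf-2 library exceeded the lowest 35.4-fold for vit-2, 29.4-fold for vit-6 and 207-fold for vit-5, the last resting on a single read in the lowest library. In the mutant these ratios were 14.8-fold, 3.01-fold and 37.9-fold.

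The 2 genes with wider spread than vit-2 did not share a single pattern. The gene clx-1 was at 15.3, 96.8, 96.5, 3.11 and 2.75 CPM in daf-2 replicates 1 to 5, with the same 2 libraries highest as for vit-2. D1086.9 was at 1187, 461, 457, 25.0 and 34.3 CPM in the same libraries, so its highest library was replicate 1. A wide spread in daf-2 was thus seen with more than one order of libraries.

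The makeup of the vitellogenin reads differed between libraries as well as their amount. In daf-2 replicates 2 and 3, with 1094 and 905 vitellogenin reads, vit-6 made up 22.7% (exact binomial 95% interval 20.2 to 25.3) and 22.98% (20.3 to 25.9) of them. In double-mutant replicate 4, with 160 vitellogenin reads, the vit-6 share was 11.25% (6.81 to 17.2), below both. Libraries with few vitellogenin reads held vit-6 shares from 21.8% in daf-2 replicate 4 to 60.5% (43.4 to 75.96) in double-mutant replicate 5. The low vit-6 share of the mutant library thus lay outside the counting intervals of the 2 high daf-2 libraries.

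For vit-5 the order was the opposite. Its share was 38.1% (30.6 to 46.1) in double-mutant replicate 4, 25.2% (22.7 to 27.9) in daf-2 replicate 2 and 12.597% (10.5 to 14.9) in daf-2 replicate 3. In the other 7 libraries it lay between 3.57% and 21.7%. The share of vit-2 was 51.8% in daf-2 replicate 2, 63.9% (60.6 to 67.0) in daf-2 replicate 3 and 50% in double-mutant replicate 4. Even the pair of daf-2 libraries with high yolk transcripts thus differed in the balance of vit-2 and vit-5 beyond counting error, while their vit-6 shares lay within each other's interval. These intervals cover counting error only.

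Between genotypes, the log2 ratio of vit-6 reads to those of vit-1 to vit-5 was -1.40 ± 0.783 (SD, n = 5) in daf-2 and -0.92 ± 1.296 in the double mutant. The difference of 0.48 was within this spread (two-sided exact permutation p = 0.484). The ratio was highest in replicate 5 of both genotypes and lowest in double-mutant replicate 4.

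**Figure D3:**
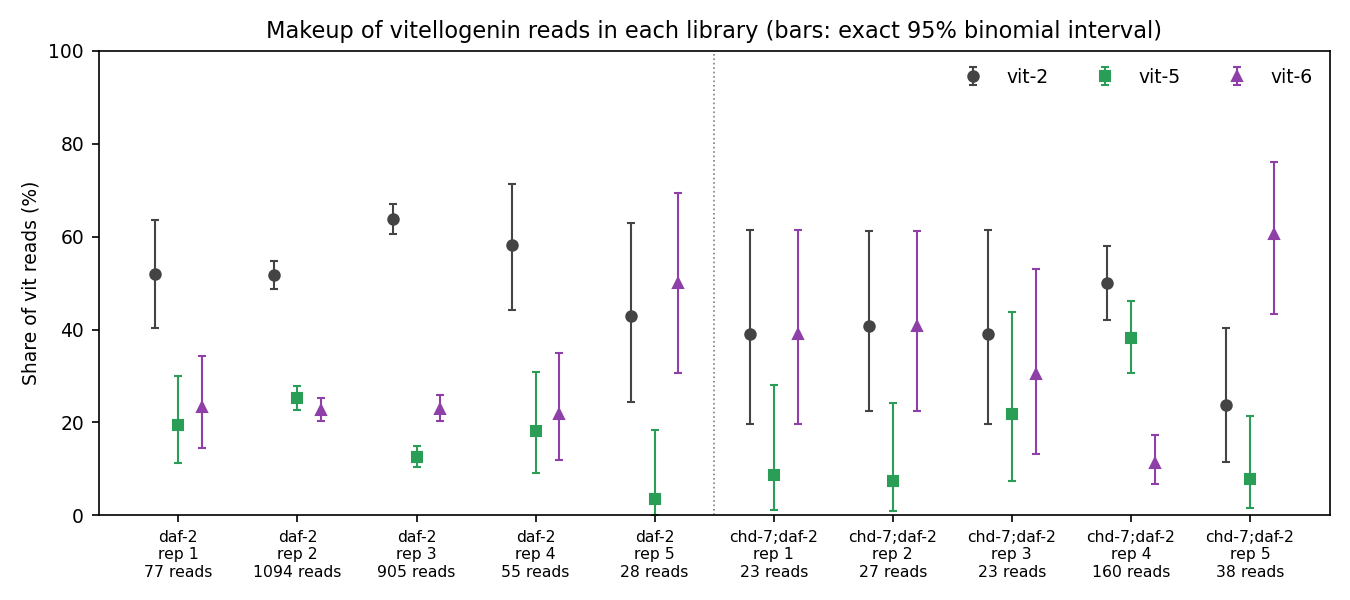
Share of the vitellogenin reads of each library that belong to vit-2, vit-5 and vit-6 (vertical axis, percent), with exact 95% binomial intervals and the number of vitellogenin reads under each library. The vit-6 share is 22.7% and 22.98% in daf-2 replicates 2 and 3 and 11.25% in double-mutant replicate 4, and intervals are wide where reads are few.

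Yolk leaves the intestine and is taken up by oocytes, and the genes of those steps were read beside the vitellogenins. Of 11 tested genes of yolk uptake and endocytosis, 3 were lower in the double mutant and the other 8 were not called, where 18.3% of all tested genes were lower and 36.2% changed in either direction. Their median log2 fold change was 0.01, against -0.03 over all tested genes. The yolk receptor gene rme-2 was at 80.2, 54.4, 128, 46.6 and 62.04 CPM in daf-2 replicates 1 to 5. Its level in double-mutant replicates 1 to 5 was 3.77, 0.545, 1.02, 45.0 and 0.720 CPM. The genotypes did not overlap, but double-mutant replicate 4 reached nearly the lowest daf-2 library. Of the high yolk libraries of daf-2, replicate 3 was the highest for rme-2 and replicate 2 was the second lowest. The gene rme-2 fell by 2.91 ± 1.03 (SE) on the log2 scale, with an edgeR adjusted p of 0.0462. Without double-mutant replicate 4 the log2 fold change was -5.63 with an adjusted p of 6.94e-05, and without any other single library the call was lost, with adjusted p up to 0.108.

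The other 2 lower genes of this list encode small GTPases of membrane traffic. The recycling gene rab-11.1 went from 823 ± 113 CPM (SD, n = 5) in daf-2 to 587 ± 32.3 CPM and fell by 0.49 ± 0.11 (SE) on the log2 scale (edgeR adjusted p = 0.00690, and 0.0915 with the closest library pairs summed). The late endosome gene rab-7 fell by 0.27 ± 0.10, with an adjusted p of 0.0497. That call was lost without any 1 library except double-mutant replicate 4 and daf-2 replicate 2, with adjusted p up to 0.117.

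Of 8 tested genes of lipoprotein assembly and secretion, 1 was higher and 1 lower, a share below the 36.2% of all tested genes called. Their median difference was -0.06 on the log2 scale. The gene dsc-4 encodes the large subunit of the microsomal triglyceride transfer protein, which loads lipid onto vitellogenins. It was at 47.3, 42.9, 39.4, 35.2 and 37.96 CPM in daf-2 replicates 1 to 5. In double-mutant replicates 1 to 5 it was at 50.1, 50.2, 56.1, 54.6 and 47.8 CPM. All mutant libraries thus lay above all daf-2 libraries, and the direction was the opposite of vit-2 and vit-6. The rise was 0.35 ± 0.10 (SE) on the log2 scale, with an edgeR adjusted p of 0.0167. In 2 fits chosen after seeing the data the call was lost, without daf-2 replicates 2 and 3 and double-mutant replicate 4 (adjusted p = 0.0843) and with the closest library pairs summed (0.141). The gene sar-1, for the GTPase of vesicles leaving the endoplasmic reticulum, fell by 0.49 ± 0.17 (adjusted p = 0.0438). That call was lost without any 1 of double-mutant replicates 1, 2, 4 and 5 and daf-2 replicates 2, 4 and 5, with adjusted p up to 0.102.

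Of 15 tested genes known to act on vitellogenin transcription, 2 were higher and 1 was lower, a share below the 36.2% of all tested genes called. Their median difference was 0.15 on the log2 scale. The homeobox gene ceh-60, whose product partners with UNC-62 to activate vitellogenin genes in the adult intestine, was at 5.63, 6.09, 3.84, 3.32 and 2.88 CPM in daf-2 replicates 1 to 5. The double mutant, again in the order of replicates, had 2.54, 1.9995, 1.02, 1.85 and 1.83 CPM. The genotypes did not overlap, and the highest daf-2 libraries were replicates 1 and 2, not 2 and 3. The gene fell by 1.23 ± 0.29 (SE) on the log2 scale, with an edgeR adjusted p of 0.00709. Its exons share 72 bases with another annotated gene.

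The intestinal GATA factor gene elt-7 rose from 5.86 ± 1.25 CPM (SD, n = 5) to 11.9 ± 2.94 CPM, by 1.01 ± 0.21 (SE) on the log2 scale (edgeR adjusted p = 0.00383). The heterochronic gene lin-29, which controls the change from larva to adult in the skin, rose by 0.33 ± 0.12 (adjusted p = 0.0399). The lin-29 call was lost without any 1 of double-mutant replicates 2 to 5 and daf-2 replicates 2 to 4, with adjusted p up to 0.0916. Other regulators named here were not called. The log2 fold change was -0.10 for unc-62, 0.20 for elt-2, the main intestinal GATA factor, and 0.25 for mab-3, which represses vitellogenin genes in males. For pqm-1, a zinc-finger factor, it was 0.15. Their adjusted p were 0.564, 0.281, 0.442 and 0.667 in that order. The level of pqm-1 in daf-2 replicates 1 to 5 was 121, 46.3, 51.1, 99.5 and 95.4 CPM, lowest in the 2 libraries with the most vitellogenin reads. In double-mutant replicates 1 to 5 it was 95.5, 62.9, 99.99, 112 and 89.7 CPM. There it was highest in replicate 4, the mutant library with the most vitellogenin reads, so the relation was not the same in both genotypes. Within daf-2, elt-2, lin-14, lin-29 and daf-16 of this list were also lowest in replicates 2 and 3. The genes tra-1, rict-1 and lrp-2 were highest in those 2 libraries, so the list had no common direction.

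Markers of tissues that make or take up yolk, or lie near it, were summed per library. The intestine list of 16 genes, among which ifb-2 and asp-1 were the most abundant, summed to 1505 to 1704 CPM in daf-2 and 1191 to 1386 CPM in the double mutant. Of its members 2 were higher and 5 lower in the mutant, a share called near the 36.2% of all tested genes. The sums of the genotypes did not overlap, as was the case for the levels of 22.7% of single genes. Within daf-2 they spanned a narrow range that did not follow the vitellogenin genes.

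The list of 23 oocyte and germline genes, led by cpg-2 and cbd-1, summed to 976 to 2566 CPM in daf-2. In the double mutant it summed to 1037 CPM in replicate 4 and 118 to 208 CPM in the other 4 libraries. Of its members 18 were lower and 5 were not called, where 18.3% of all tested genes were lower. But the count called ranged from 4 to 22 over the fits without 1 library. It was lowest without double-mutant replicate 1 and highest without double-mutant replicate 4. With all 10 libraries kept, 5 were called without the filter on low counts and 15 to 22 in the other alternatives. Without daf-2 replicates 2 and 3 the count was 5, and 22 without double-mutant replicate 4 as well. Within daf-2, replicate 3 was highest and replicate 2, at 1146 CPM, was not set apart. All 23 genes had their highest mutant library in replicate 4, as did 16.9% of all tested genes.

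The list of uterus and somatic gonad genes, led by ule-1 and ule-4, summed to 813 and 789 CPM in daf-2 replicates 2 and 3 and to 204 to 254 CPM in the other 3. In the double mutant it summed to 120 CPM in replicate 4 and 43.0 to 61.2 CPM in the others. Of its 7 tested members 5 were lower and 1 was higher, where 18.3% of all tested genes were lower and 17.9% were higher. The list sum thus stood high in the same daf-2 libraries, and in the same mutant library, as vit-2, but through its ule genes. Each of ule-1 to ule-5 was highest in daf-2 replicates 2 and 3. The gene lim-7 was at 16.2 to 21.4 CPM in daf-2, highest in replicate 4, and lin-11 was lowest in replicate 2, at 4.81 CPM. Among the mutant libraries, ule-1, ule-3 and ule-4 were highest in replicate 4, ule-2 in replicate 3 and ule-5 in replicate 1. The gene fkh-6 of this list had 0 reads in all libraries.

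Sperm and embryo genes were low. The 9 sperm genes found in the tables summed to 1.18 to 1.65 CPM in daf-2 and 2.28 to 4.91 CPM in the double mutant, led by spe-11 and spe-9. The gap between these sums lay in spe-11, at 0 to 0.0691 CPM in daf-2 and 0.527 to 3.60 CPM in the mutant. The genotypes overlapped for spe-9, at 0.393 to 1.05 and 0.524 to 0.965 CPM. The 8 embryo genes summed to 0.915 to 1.38 and 0.614 to 1.70 CPM, led by med-2 and pes-1, and med-1 had 0 reads. Of 6 adult cuticle genes, col-19, bli-1 and bli-2 had 0 reads in every library. The only one tested, col-62, passed the filter through the mutant libraries alone. It was at 0.276 to 0.824 CPM in daf-2 and 1.11 to 8.91 CPM in the double mutant. Its rise of 2.86 ± 0.56 (SE) on the log2 scale is thus a description, and no test is drawn from it. The gene col-63, not tested, went the other way, at 0 to 0.458 CPM in daf-2 and 0 to 0.0909 CPM in the mutant. The list sums were 0.393 to 1.28 and 1.18 to 8.998 CPM. The dauer list, led by hsp-12.6 and sip-1, summed to 747 to 966 CPM in daf-2 and 302 to 617 CPM in the mutant. Of its 6 tested members 1 was higher (cut-6) and 2 were lower (cut-1 and sip-1), where 36.2% of all tested genes were called in either direction. The libraries of sip-1 were ordered like the oocyte and germline list. It was highest in daf-2 replicate 3, at 255 CPM, and at 113 CPM in double-mutant replicate 4 against 15.1 to 26.9 CPM in the other mutant libraries. Most of the list sum was hsp-12.6, with means of 598 CPM in daf-2 and 412 CPM in the mutant. Whether the sum and the sip-1 call reflect dauer genes alone was not tested. What part of the vitellogenin differences these tissues or stages account for was not tested.

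The order of libraries seen in vit-2 was shared by a minority of genes. In 8.82% of the 12499 tested genes, 1102 in all, the 2 highest libraries were daf-2 replicates 2 and 3, as for vit-2 and vit-6. In 16.9% the highest mutant library was replicate 4, and in 2.23%, 279 genes, both held. Of the uterus and somatic gonad list, 5 of 7 tested genes, all of them ule genes, shared the first property and 3 shared both. Of the oocyte and germline list 3 of 23 shared the first, of the intestine list 1 of 16, and of the uptake, secretion and regulator lists none.

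The genes closest to the yolk genes over the 10 libraries were ranked by the root-mean-square difference of log2 CPM, each gene centred on its own mean, from the mean profile of vit-2 and vit-6. Since the profile is the mean of vit-2 and vit-6 alone, both lay at the same distance from it by construction, 0.456. That value is no measure of their agreement and cannot be set against those of other genes. Over 12358 candidates the median of this distance was 1.92. The closest was the cuticle collagen gene col-140, at 0.426. Its level was 1.02, 32.5, 18.9, 0.899 and 2.49 CPM in daf-2 replicates 1 to 5. In double-mutant replicates 1 to 5 it was 0.439, 0.636, 0.836, 2.94 and 0.655 CPM. The same 2 daf-2 libraries and the same mutant library were thus highest as for vit-2.

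Next came col-143 (0.750), F54F7.3 (0.768), col-106 (0.780), F30A10.13 (0.793), F17E9.2 (0.810), mlc-7 (0.824) and col-95 (0.827). The 8 genes include 4 collagen genes and mlc-7, a myosin light chain gene. They were chosen for this likeness, so their genotype differences are given as a description. The log2 fold change was -3.39 for col-140 and ran from -3.71 in col-143 to -1.78 in col-95. F54F7.3, the most abundant of the first 3, was at 24.6, 73.8, 74.0, 10.6 and 16.9 CPM in daf-2 replicates 1 to 5 and 4.12, 6.36, 6.23, 13.7 and 3.67 CPM in the mutant.

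**Figure D4:**
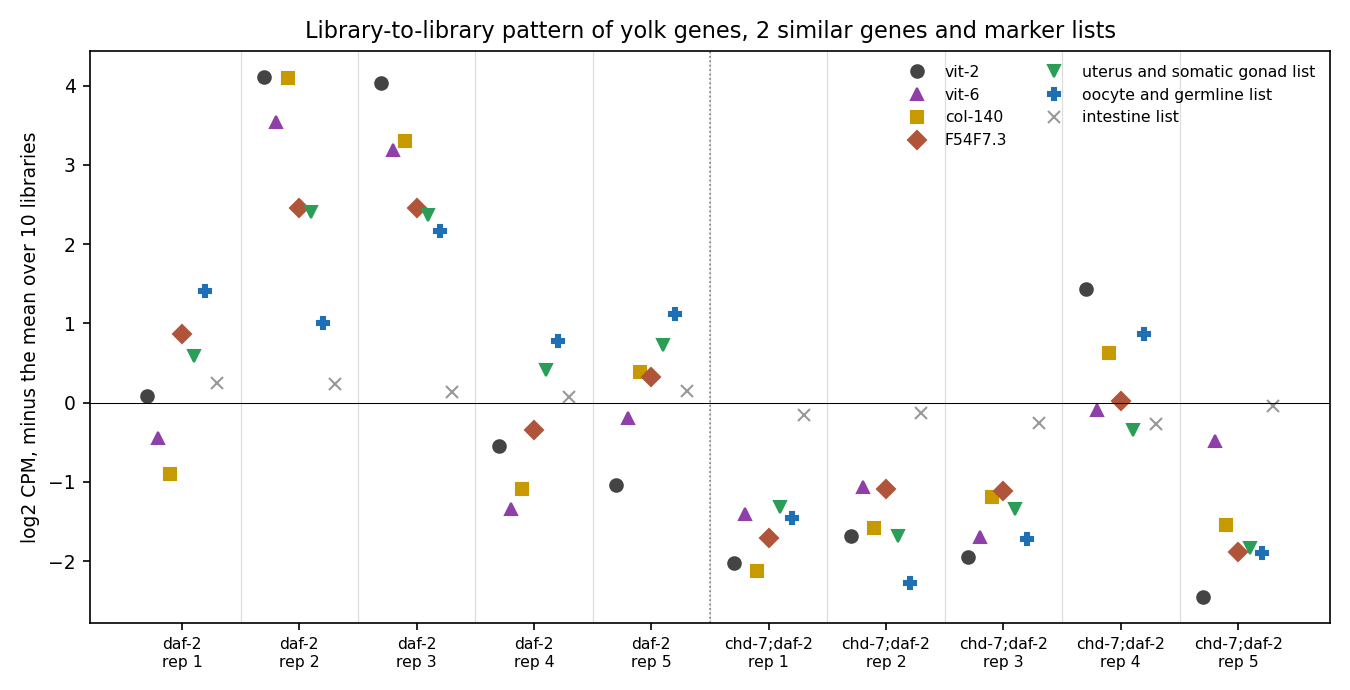
The log2 CPM of vit-2, vit-6, col-140, F54F7.3 and the summed uterus, oocyte and intestine lists in each library, each minus its mean over the 10 libraries. In daf-2 replicates 2 and 3 both vit genes, col-140, F54F7.3 and the uterus list stand well above their mean, the intestine list stays near 0 in every library, and in double-mutant replicate 4 vit-2 and the oocyte list stand above the other mutant libraries.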

How the data were processed

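RNA was measured in 5 daf-2 and 5 chd-7;daf-2 dauer libraries, from TRIzol extracts and an NEBNext Ultra II kit per the labels' protocols. The authors deposited whole-number read counts per gene, not normalized. The submitters' processing notes name DESeq2 1.20.0, HTSeq 0.9.1, STAR 2.5.4a and FastQC 0.11.5. No build, annotation or strand setting is stated in the sources used here. Tally rows that name no gene were dropped. As a share of gene reads and tallies together, reads with several alignments were 5.53% to 11.2%, reads outside genes 2.94% to 5.70% and ambiguous reads 2.07% to 2.30%.

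The test was edgeR 4.0.16 under R 4.3.3. Of 20222 genes 12499 passed filterByExpr, with a minimum count of 10 and a minimum total of 15. After TMM scaling, the robust quasi-likelihood F test compared genotypes with no covariate, with Benjamini-Hochberg adjustment over all tested genes and a threshold of 0.05. It gives every adjusted p for which no other tool is named. An SE was taken as the size of the log2 fold change over the root of F. For spread and likeness, log2 CPM had a prior count of 2, and candidates for likeness needed a mean CPM of 1 or more. It was also tested on simulated counts, drawn from the means and sizes of these libraries for 12499 genes, with 50 genes changed at each fold. Recovery was 16% at 1.5-fold, 62% at 2-fold and 94% at both 4-fold and 8-fold, with 3.62% of calls false. In the simulation each gene varied independently over libraries and few genes were changed. These shares therefore do not apply to vit-2 and vit-6, which were high together in a few libraries.

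The 6 members and all gene lists were chosen with earlier results of these data known. The named genes are all 6 members, up to 4 called genes per direction in each yolk pathway list plus rme-2, dsc-4, unc-62, ceh-60, pqm-1 and mab-3, the 2 most abundant genes of each marker list and the 8 genes closest in profile. Others (elt-2, lin-14, clx-1, D1086.9, col-2, cut-1, cut-6, the other ule genes, lim-7, lin-11, col-63, and single markers with 0 reads or tested alone) were chosen after their values were seen. So were daf-16, tra-1, rict-1 and lrp-2. The names sec-16A.1, trp-3 and col-6 matched no row. Alternatives included DESeq2 1.42.0, voom with quality weights in limma 3.58.1, other scalings, filters and pseudocounts, a replicate block and fits without some libraries.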

Additional observations from a re-analysis of the deposited data

Results flagged for a closer look

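In 10 of 59 sets of 5 libraries judged, 1 library lay far from the other 4 by Dixon's test at the 95% level, where chance flags about 5% of sets. The sets share libraries and genes and are not independent. The genes closest in profile were chosen for their likeness to vit-2 and vit-6, and rme-2 is also a member of the oocyte list. The count of flags is therefore no test against that share.

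Most of these concern chd-7;daf-2 replicate 4. It held 8.71 CPM of vit-2 against 0.589 to 0.9997 in the other 4 mutant libraries, and 6.64 CPM of vit-5 against 0.176 to 0.465. The yolk receptor gene rme-2 was at 45.0 CPM there against 0.545 to 3.77. The genes col-140, F54F7.3 and F30A10.13, which resemble the vit genes across libraries, were at 2.94, 13.7 and 1.63 CPM, each above the other 4. The oocyte and germline list summed to 1037 CPM against 118 to 208, and the uterus and somatic gonad list to 120 CPM against 43.0 to 61.2.

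In daf-2, the regulators of vitellogenin transcription summed to 1261 CPM in replicate 2 against 1467 to 1547 in the others. The log2 ratio of vit-6 to the other vit reads was 0 in daf-2 replicate 5, from 28 vit reads, against -1.80 to -1.69 in the others. The high vit levels of daf-2 replicates 2 and 3 were not picked out by this test, which looks for a single library. The cause of none of these was tested.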

How the results depend on the processing

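Where all 10 libraries were kept, DESeq2 called vit-2 (-3.28, adjusted p = 0.0167) and vit-6 (-3.01, adjusted p = 0.00504) lower, and RLE scaling also called both. Limma-voom called 0 (vit-2 -2.48, adjusted p = 0.136; vit-6 -1.83, adjusted p = 0.155), total-count scaling 1 (vit-2 -3.38, adjusted p = 0.0575) and no filter 0 (-3.35 and -2.997). Under the stricter filter of at least 5 CPM in 5 libraries no vit gene was tested. Without daf-2 replicates 2 and 3, 0 were called (-0.089 and -0.22). Without those and chd-7;daf-2 replicate 4, vit-2 was called (-1.61) and vit-6 was not (-0.44), so 1 in all. Both of these sets were chosen for their vit reads, so the calls are no test. With the closest library pairs summed, 0 were called (-3.81 and -3.23), and 2631 genes of the whole table. These last 2 alternatives were chosen after seeing the data. Without 1 library, 0 to 2 vit genes were called, with log2 fold changes of -4.85 to -2.73 (vit-2) and -3.31 to -2.30 (vit-6). The permutation difference then ran from -2.83 to -1.61 for vit-2 and from -2.10 to -1.05 for vit-6, and passed for vit-2 without chd-7;daf-2 replicate 4 and for vit-6 without daf-2 replicate 4 (exact p = 0.0317 each). The vit-6 ratio passed under no alternative, with differences of 0.10 to 0.98. No result changed its direction where it was called. Except where a setting tests fewer libraries, the cause was not tested.

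Same-numbered libraries of the genotypes share only a number: their deviations correlated at 0.305, 0.325, -0.192, -0.181 and 0.240, and 2 of 5 libraries matched their own number best. With the replicate block, 0 vit genes were called (vit-2 -2.88, adjusted p = 0.213; vit-6 -2.02, adjusted p = 0.199), and 5 regulators. The exact sign-flip test over the replicate pairs gave p = 0.25 for vit-2 and 0.3125 for vit-6.

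Of the uptake genes 1 was called with total-count scaling, no filter or summed pairs, and 1 to 3 without 1 library. Of the secretion genes 1 was called with total-count scaling or without the 3 libraries, 0 with summed pairs, and 1 to 3 without 1 library. Depth limits vit-1, vit-3 and vit-4, which had at most 16 reads over all libraries, and the makeup of libraries with under 100 vit reads.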
